A study of Mus musculus with 11 samples.

Results

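Matrix metalloproteinases (MMPs), tissue inhibitors of metalloproteinases (TIMPs) and ADAMTS proteases were examined in 3 mouse cell lines used to study BMP signalling. The members were all gene symbols of the Mmp, Timp and Adamts series in the deposited expression tables, 46 of 23355 symbols: 23 MMPs, 4 TIMPs and 19 ADAMTS proteases. NIH3T3 is a fibroblast line of NIH/Swiss origin, E14 is an embryonic stem (ES) cell line of 129/Ola mice, kept with LIF on gelatin, and NMuMG is a mammary epithelial line of NAMRU mice. Total RNA was sequenced from parental cultures and from cultures carrying a BRE reporter, a transgene read out by BMP signalling. No culture was labelled as ligand-treated, and the labels do not say whether a reporter line is 1 clone.

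NIH3T3 had 3 replicates, ES cells 3 and NMuMG 4. NIH3T3 replicate 1 was parental, and the tables of replicates 2 and 3 could not be tied to single samples, although the labels give the remaining NIH3T3 samples as reporter cultures. ES replicate 1 was parental and ES replicates 2 and 4 carried the reporter, replicate 2 being the mean of 2 technical runs of 1 culture. NMuMG replicates 1 and 3 were parental and replicates 2 and 4 carried the reporter. The labels name biological replicates without saying whether they were separate cultures, so p-values measure the spread between these samples. Levels are FPKM, fragments normalised to transcript length and to sequencing depth, a scale that allows levels of different genes to be compared.

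MMPs are zinc endopeptidases that are made as inactive precursors and cut collagens, proteoglycans, growth factor carriers and cell surface proteins. TIMPs bind the active site of MMPs, and some also inhibit ADAM and ADAMTS enzymes. ADAMTS proteases are secreted relatives with thrombospondin repeats that trim procollagens and cut large proteoglycans such as aggrecan and versican. Fibroblasts are a main source of many of these proteins in connective tissue, and several MMPs are known to be induced in culture by cytokines or phorbol esters.

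The lines carried the markers of their labels. Summed over 5 fibroblast markers, NIH3T3 replicates had 1815 to 4427 FPKM, against 2.89 to 4.91 FPKM in ES cells and 0.200 to 1.33 FPKM in NMuMG. The 5 ES markers summed to 1780 to 2635 FPKM in ES cells and to at most 2.62 FPKM elsewhere, and the 5 epithelial markers to 4210 to 6037 FPKM in NMuMG, 155 to 190 FPKM in ES cells and at most 0.748 FPKM in NIH3T3. One of the epithelial markers, Epcam, was higher in ES cells than in NMuMG, at 69.9 ± 7.45 against 4.65 ± 2.25 FPKM. Macrophage markers, which would mark a common source of MMPs, summed to at most 9.49 FPKM in any replicate over the 4 listed in the tables, endothelial markers to at most 13.0 FPKM and muscle markers to at most 5.41 FPKM. The libraries fell into 3 series by their table numbers, with NIH3T3 replicates 2 and 3 alone in series 3, at 3.80 to 3.81 times the relative depth of the parental ES library, against 0.933 to 1.28 in the other series. Line and series are therefore partly confounded, and series 2 alone holds all 3 lines.

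NIH3T3 cells expressed the most members, mainly through the ADAMTS proteases. A mean of at least 1 FPKM was reached by 18 of the 46 members in NIH3T3, 11 in ES cells and 12 in NMuMG. A mean of at least 5 FPKM was reached by 14, 3 and 6 of them in the same order. At 1 FPKM the count of MMPs was 6 in every line, that of TIMPs 3, 2 and 3 and that of ADAMTS proteases 9, 3 and 3. At 5 FPKM the MMP counts were 5, 2 and 3. Of the 24 members that reached 1 FPKM in some line, 16 were highest in NIH3T3 (4 MMPs, 3 TIMPs and 9 ADAMTS proteases), 4 in ES cells and 4 in NMuMG. The remaining 22 stayed below 1 FPKM on average in every line. Summed ADAMTS levels were 134 ± 98.2 FPKM in NIH3T3, 7.46 ± 2.52 FPKM in ES cells and 15.0 ± 13.0 FPKM in NMuMG (SD, n = 3, 3 and 4). The sum was 90.2, 64.6 and 246 FPKM in NIH3T3 replicates 1 to 3, 10.3, 6.41 and 5.63 FPKM in ES replicates 1, 2 and 4, and 34.1, 11.2, 10.5 and 4.5 FPKM in NMuMG replicates 1 to 4. One replicate carried much of the mean in NIH3T3 and in NMuMG: the mean was 77.4 FPKM without NIH3T3 replicate 3 and 8.71 FPKM without NMuMG replicate 1, settings chosen after seeing the data.

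**Figure D1:**
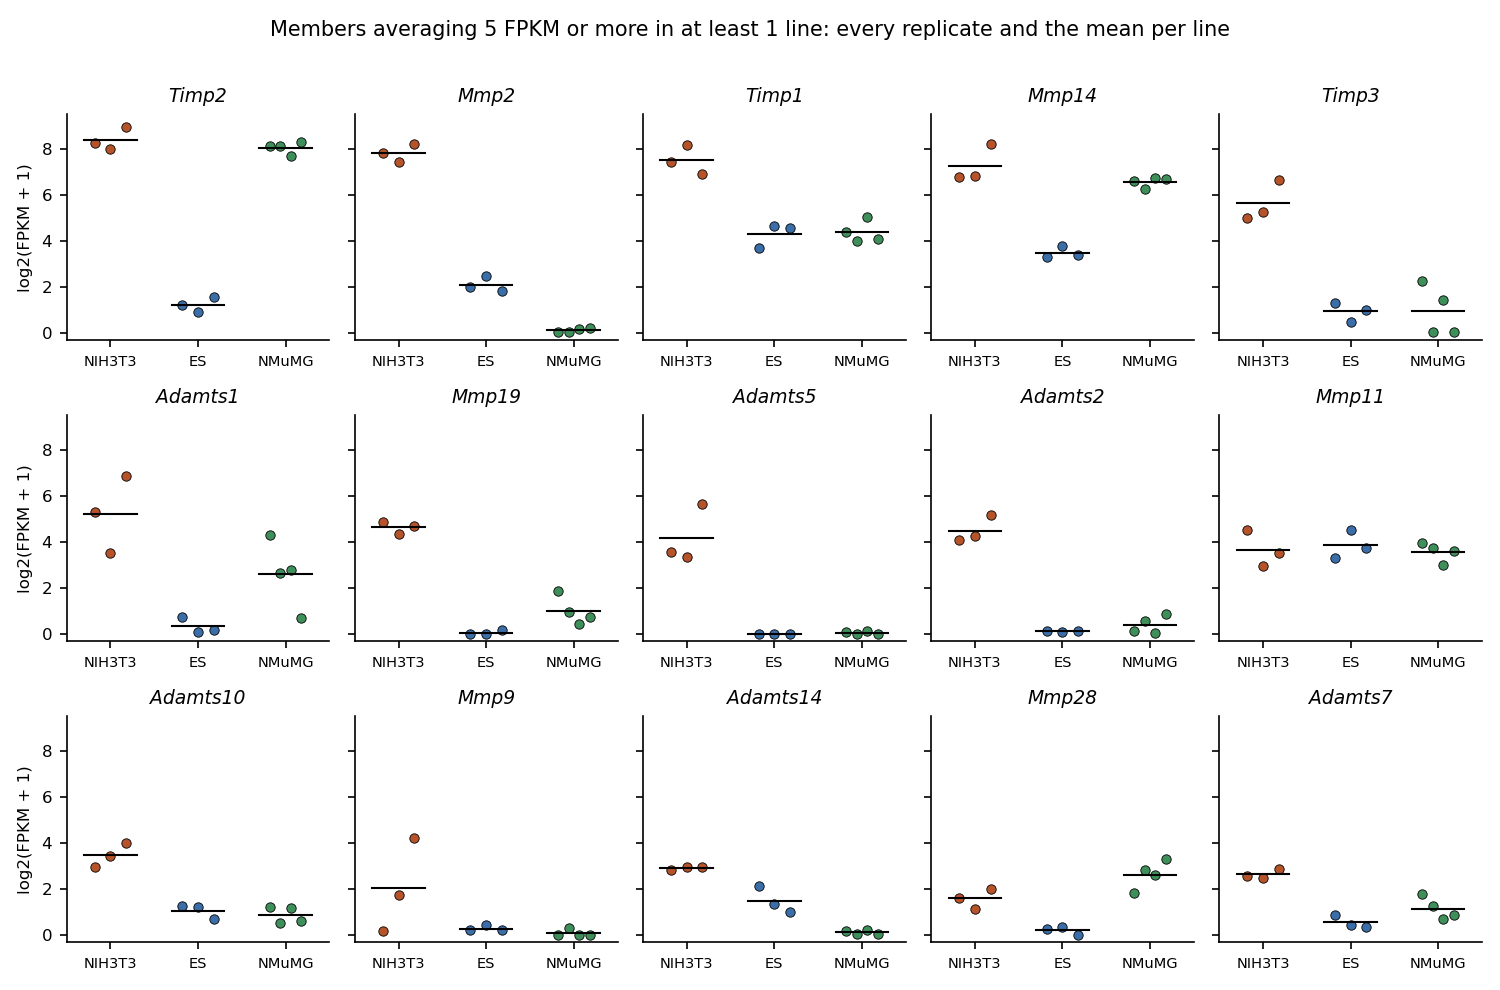
Levels of the 15 members that averaged at least 5 FPKM in at least 1 line, on the log2(FPKM + 1) scale. Each point is 1 replicate and each bar is the mean of a line, with NIH3T3 at the left of every panel. Timp2 and Mmp14 are high in NIH3T3 and NMuMG and low in ES cells, whereas Mmp2 is high in NIH3T3 alone and the Mmp11 ranges of the 3 lines overlap.

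The lines were compared with limma on log2(FPKM + 1) across all 12350 genes that reached 1 FPKM in at least 3 of the 10 replicates, and a gene was called at a Benjamini-Hochberg adjusted p under 0.05 with at least a 2-fold change. Only 19 members passed that filter, and 5 of them reached 1 FPKM in replicates of 1 line alone. These were Adamts2, Adamts4, Adamts5 and Adamts12 in NIH3T3 and Mmp17 in ES cells, so for those a difference was built into the selection. Mmp19 and Adamts7 also passed only with their NIH3T3 replicates. Outside NIH3T3, Mmp19 reached 1 FPKM only in NMuMG replicate 1 (2.70 FPKM), and Adamts7 only in NMuMG replicates 1 and 2 (2.44 and 1.46 FPKM). The counts and medians below include all these members. In NIH3T3 against NMuMG, 12 of the 19 were higher and 2 lower, where 10.6% of all tested genes were called higher and 14.4% lower. In NIH3T3 against ES cells 15 were higher and 2 lower, against 23.0% and 20.1% of all tested genes. In ES cells against NMuMG 3 were higher and 5 lower, against 19.4% and 26.4%, which is a share near that of all genes. The median log2 change of the 19 was 2.15, 2.40 and -0.05 in these 3 comparisons, against -0.05, -0.03 and -0.09 over all tested genes. The families differed. Of the 7 tested MMPs 2 were higher and 2 lower in NIH3T3 against NMuMG, with a median log2 change of 0.10. Against ES cells 4 of these 7 were higher and 2 lower, with a median of 1.39. Of the 9 tested ADAMTS proteases 8 were higher and 0 lower in both NIH3T3 comparisons. The filter fixed that count in part, since Adamts2, Adamts4, Adamts5, Adamts7 and Adamts12 passed it only with their NIH3T3 replicates. Within series 2 alone, with 1 NIH3T3, 1 ES and 2 NMuMG replicates, all called members kept their direction, and 7, 10 and 3 of them were still called. NIH3T3 and ES cells have no replicate spread in that fit, so its error comes from the 2 NMuMG libraries, 1 parental and 1 reporter. In both NIH3T3 comparisons the calls lost there were those of Timp1, Timp3, Adamts1, Adamts2, Adamts10, Mmp15 and Mmp28.

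**Figure D2:**
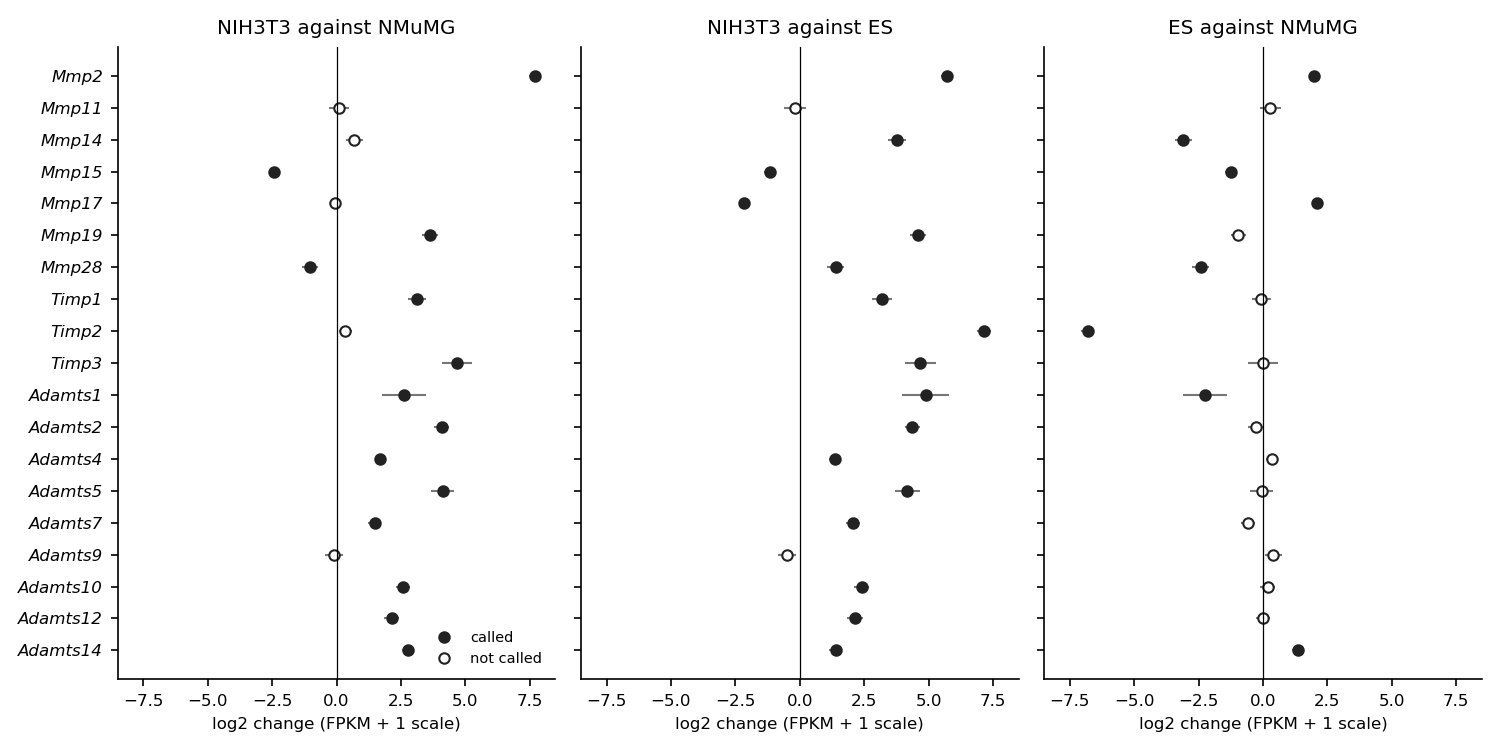
Fitted log2 change (FPKM + 1 scale) of the 19 tested members in NIH3T3 against NMuMG, NIH3T3 against ES cells and ES cells against NMuMG. Bars are 1 standard error of the limma fit, filled points were called and open points were not; in both NIH3T3 comparisons most filled points lie right of 0.

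The membrane-bound collagenase Mmp14, the inhibitor Timp2 and the gelatinase Mmp2 form a known activation unit: MMP14 at the cell surface holds the MMP2 precursor through a bridging TIMP2 molecule, and a second MMP14 releases the active enzyme. All 3 transcripts were abundant in NIH3T3, Mmp2 was near 0 in NMuMG, and all 3 were low in ES cells. Mmp14 was at 109, 112 and 295 FPKM in NIH3T3 replicates 1, 2 and 3, at 8.82, 12.8 and 9.42 FPKM in ES replicates 1, 2 and 4, and at 95.7, 76.1, 107 and 103 FPKM in NMuMG replicates 1 to 4. NIH3T3 and NMuMG values were close except for NIH3T3 replicate 3, and every ES value was below both. By limma, Mmp14 differed from ES cells by a log2 change of 3.78 ± 0.342 (SE, adjusted p = 6.11e-06) in NIH3T3, and in ES cells against NMuMG by -3.09 ± 0.320 (adjusted p = 1.39e-05). In NIH3T3 against NMuMG the change of 0.69 ± 0.320 was not called (adjusted p = 0.111), and without NIH3T3 replicate 3 it was 0.23.

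Timp2 had the highest level of any member. It was at 301, 251 and 492 FPKM in NIH3T3, at 1.33, 0.906 and 2.00 FPKM in ES cells, and at 277, 275, 203 and 317 FPKM in NMuMG. The NIH3T3 and NMuMG ranges overlapped, and every ES replicate was far below both. The log2 change was 7.14 ± 0.271 in NIH3T3 against ES cells (limma, adjusted p = 1.56e-08) and -6.81 ± 0.254 in ES cells against NMuMG (adjusted p = 9.7e-09). NIH3T3 against NMuMG gave 0.33 ± 0.254 (adjusted p = 0.333). As these are bulk cultures, fewer expressing cells and less RNA per cell cannot be told apart for any of these differences.

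Mmp2 separated all 3 lines. It was at 227, 172 and 291 FPKM in NIH3T3, at 2.99, 4.66 and 2.61 FPKM in ES cells, and at 0.0286, 0.0255, 0.142 and 0.188 FPKM in NMuMG, with no overlap between any pair of lines. Its log2 change in NIH3T3 was 7.69 ± 0.215 against NMuMG (limma, adjusted p = 2.28e-09) and 5.71 ± 0.229 against ES cells (adjusted p = 2.25e-08), and in ES cells against NMuMG it was 1.99 ± 0.215 (adjusted p = 1.89e-05). Relative to Mmp14 in the same replicate, Mmp2 stood at 1.53 ± 0.546 in NIH3T3, 0.326 ± 0.0445 in ES cells and 0.000949 ± 0.000759 in NMuMG, whereas Timp2 stood at 2.22 ± 0.545, 0.145 ± 0.0712 and 2.88 ± 0.713 in the same order (SD, n = 3, 3 and 4). NMuMG thus had transcripts of the membrane enzyme and of the bridging inhibitor with almost none of Mmp2, and ES cells had Mmp14 and Mmp2 transcripts with the lowest level of Timp2.

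The inhibitor make-up was different in each line. Timp2 was 57.6 ± 12.7% of the summed TIMP FPKM in NIH3T3, 6.68 ± 2.81% in ES cells and 92.0 ± 4.32% in NMuMG. Timp1, an inhibitor of most secreted MMPs but a poor one of Mmp14, took 33.5 ± 16.5%, 87.3 ± 7.91% and 7.50 ± 4.02%. Timp1 ranked first among the TIMPs in every ES replicate and Timp2 in every NMuMG replicate, whereas NIH3T3 replicate 2 had more Timp1 and the other two more Timp2. The ratio of summed TIMP to summed MMP FPKM was 1.29, 1.82 and 1.11 in NIH3T3, 0.519, 0.528 and 0.875 in ES cells, and 2.46, 2.82, 1.87 and 2.55 in NMuMG. The 3 lines did not overlap in that ratio, which sums transcripts and is no measure of free inhibitor protein.

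**Figure D3:**
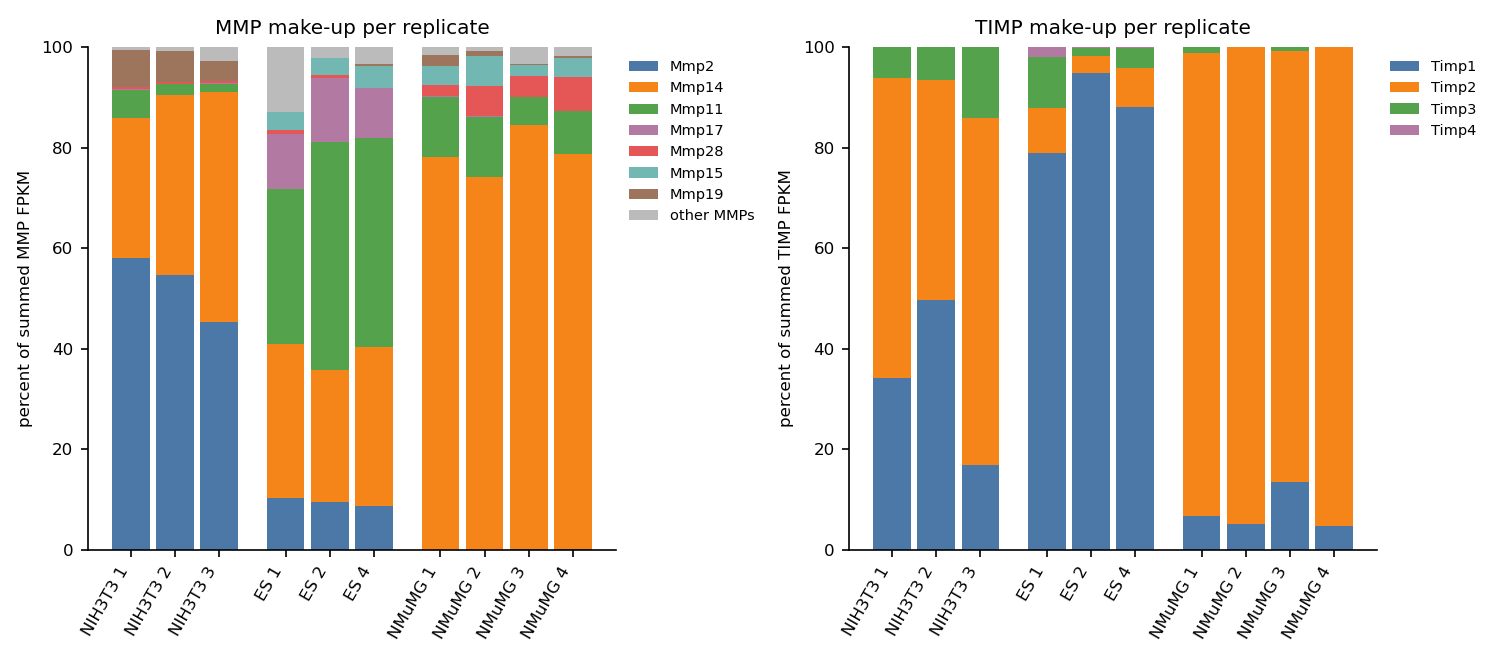
Make-up of the MMP (left) and TIMP (right) transcripts in each of the 10 replicates, as percent of the summed FPKM of the family. NIH3T3 bars are mainly Mmp2 and Mmp14 with Timp2 and Timp1, ES bars mainly Mmp11 and Mmp14 with Timp1, and NMuMG bars mainly Mmp14 with Timp2.

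Timp1 itself was at 172, 284 and 120 FPKM in NIH3T3, at 11.8, 24.4 and 23.0 FPKM in ES cells, and at 20.2, 14.8, 31.7 and 15.9 FPKM in NMuMG. The fibroblast values were all above the rest, and the ES and NMuMG ranges overlapped. The log2 change in NIH3T3 was 3.13 ± 0.359 against NMuMG (limma, adjusted p = 5.46e-05) and 3.19 ± 0.384 against ES cells (adjusted p = 4.67e-05). In ES cells against NMuMG it was -0.06 ± 0.359 (adjusted p = 0.892). The high share of Timp1 in ES cells thus went with a low level of Timp2, while its own level overlapped that of NMuMG. Timp1 lies within the Syn1 gene, which was at 6.08 to 6.56 FPKM in NIH3T3 and at no more than 2.60 FPKM elsewhere, and the sources used here do not say whether counting used strand.

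Timp3, which binds to matrix and inhibits aggrecanases as well as MMPs, was at 30.8, 36.9 and 101 FPKM in NIH3T3. ES cells had 1.5, 0.414 and 1.04 FPKM and NMuMG 3.80, 0.0484, 1.70 and 0.0331 FPKM. Every NIH3T3 value was above the others, and the NMuMG values split into a pair above 1.5 FPKM (parental) and a pair under 0.05 FPKM (reporter). The log2 change in NIH3T3 was 4.68 ± 0.579 against NMuMG (limma, adjusted p = 9.29e-05) and 4.68 ± 0.619 against ES cells (adjusted p = 8.91e-05). Timp4 stayed at or under 0.388 FPKM in every replicate and was listed at 0 in all 4 NMuMG replicates.

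Among the other MMPs, Mmp11 had no called difference between the lines. Mmp11, a stromelysin that furin activates inside the cell, was at 22.2, 6.78 and 10.6 FPKM in NIH3T3, at 8.94, 22.1 and 12.5 FPKM in ES cells, and at 14.7, 12.4, 7.01 and 11.1 FPKM in NMuMG. All 3 ranges overlapped, and no comparison was called (limma, adjusted p = 0.881, 0.725 and 0.546 for NIH3T3 against NMuMG, NIH3T3 against ES cells and ES cells against NMuMG). A missed threshold does not show equal levels, and the estimates for NIH3T3 moved with the library series. In NIH3T3 against NMuMG the log2 change was 1.16 with series as a term, 1.24 within series 2 and 1.05 in parental cultures, and against ES cells it was 0.94, 0.79 and 1.22 in the same settings, none of them called. Mmp11 made up 39.3 ± 7.44% of the MMP FPKM in ES cells, against 3.16 ± 2.20% in NIH3T3 and 9.52 ± 3.12% in NMuMG.

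Mmp19, a secreted protease with basement membrane substrates, was highest in NIH3T3. It was at 28.6, 19.5 and 25.2 FPKM in NIH3T3, listed at 0, 0 and 0.125 FPKM in ES cells, and at 2.70, 0.969, 0.361 and 0.667 FPKM in NMuMG. The log2 change was 3.64 ± 0.302 in NIH3T3 against NMuMG (limma, adjusted p = 4.49e-06) and 4.59 ± 0.323 against ES cells (adjusted p = 1.02e-06). As given above, Mmp19 passed the filter only with its NIH3T3 replicates. Mmp19 overlaps the Tmem198b entry, at 7.43 to 11.6 FPKM in NIH3T3, 1.29 to 4.0 FPKM in ES cells and 4.52 to 6.56 FPKM in NMuMG, so the zeros of Mmp19 in ES cells are uncertain.

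The gelatinase Mmp9 was seen at 0.135, 2.39 and 17.9 FPKM in NIH3T3, at 0.168, 0.367 and 0.176 FPKM in ES cells, and at 0.0138, 0.258, 0 and 0.0101 FPKM in NMuMG. Its NIH3T3 mean rests on replicate 3, and with 2 replicates above 1 FPKM it did not enter the test. The same replicate 3 was also the highest NIH3T3 value for Adamts1, Adamts5, Timp3 and Mmp14.

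Mmp28, Mmp15 and Mmp17 were highest outside NIH3T3. Mmp28, a secreted enzyme known as epilysin, was at 2.13, 1.23 and 3.10 FPKM in NIH3T3, at 0.202, 0.297 and 0.0157 FPKM in ES cells, and at 2.60, 6.07, 5.09 and 8.82 FPKM in NMuMG. It was lower in NIH3T3 than in NMuMG by a log2 change of -1.03 ± 0.321 (limma, adjusted p = 0.0265), a call that was lost without NIH3T3 replicate 1 or 2 or NMuMG replicate 2 or 4 (adjusted p = 0.0576 to 0.110), and the 2 ranges overlapped. With library series as a term the call was lost too (-1.12 ± 0.536, adjusted p = 0.188), as was the call of Mmp28 against ES cells (1.26 ± 0.573, adjusted p = 0.110). In ES cells Mmp28 was lower than in NMuMG, by -2.42 ± 0.321 (adjusted p = 8.01e-05).

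Mmp15, a membrane-type relative of Mmp14, was at 0.045, 0.00487 and 0.00733 FPKM in NIH3T3, at 1.05, 1.58 and 1.28 FPKM in ES cells, and at 4.62, 6.21, 2.81 and 4.75 FPKM in NMuMG. The order NMuMG, ES cells, NIH3T3 held without overlap. Its log2 change was -2.42 ± 0.203 in NIH3T3 against NMuMG (limma, adjusted p = 4.83e-06), -1.17 ± 0.217 against ES cells (adjusted p = 0.000905) and -1.25 ± 0.203 in ES cells against NMuMG (adjusted p = 0.000324). With library series as a term, the change of Mmp15 against ES cells was -0.95 ± 0.335 (adjusted p = 0.0494), under the 2-fold limit and so not called. Mmp17, a membrane-type enzyme held by a lipid anchor, was highest in ES cells, with 3.16, 6.27 and 2.93 FPKM in ES cells against 0.0604 to 0.143 FPKM in NIH3T3 and 0.0631 to 0.297 FPKM in NMuMG.

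The membrane-type enzymes as a class were 36.6 ± 8.84% of the summed MMP FPKM in NIH3T3, 48.8 ± 6.02% in ES cells and 82.8 ± 2.76% in NMuMG (SD, n = 3, 3 and 4). Mmp14 alone was 36.5 ± 9.0%, 29.4 ± 2.81% and 78.8 ± 4.23%. Of the lower members, Mmp25, another lipid-anchored enzyme, reached 2.64 FPKM in the parental ES replicate and 0.318 and 0.224 FPKM in the ES reporter replicates. Mmp13 reached 3.56 FPKM in NMuMG replicate 3, and Mmp16 1.28 FPKM in NIH3T3 replicate 1. Mmp23 averaged 0.259 FPKM in NIH3T3, 0.324 FPKM in ES cells and 0.579 FPKM in NMuMG, and Mmp24 was listed at 0 in NIH3T3 and NMuMG and averaged 0.251 FPKM in ES cells. Mmp24 overlaps the BC029722 entry, which was at 31.2 to 36.9 FPKM in NIH3T3, 3.03 to 6.03 FPKM in ES cells and 25.7 to 43.7 FPKM in NMuMG, so its 0 is uncertain.

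Of the 19 ADAMTS proteases 9 were tested, and 4 of these (Adamts2, Adamts4, Adamts5 and Adamts12) entered the test through NIH3T3 alone, so that they are described by their levels. Of the other 5, Adamts1, Adamts7, Adamts10 and Adamts14 were called higher in NIH3T3 than in either other line, and Adamts9 was not called. Adamts7 too passed the filter only with its NIH3T3 replicates, so its call was built in part into the selection. Of all tested genes, 10.6% were called higher against NMuMG and 23.0% against ES cells. The call of Adamts1 against NMuMG is uncertain, since the ranges overlapped and some settings lost it, as given below. The ADAMTS counts leave out members that were highest elsewhere, such as Adamts8 and Adamts15, since they did not pass the filter. The procollagen N-proteinases remove the amino-terminal propeptide of fibrillar collagens. Adamts2, the main one, was at 15.9, 18.1 and 34.9 FPKM in NIH3T3, at 0.107, 0.0765 and 0.0913 FPKM in ES cells, and at 0.0918, 0.510, 0.0379 and 0.854 FPKM in NMuMG. All NIH3T3 values of Adamts2 were far above the rest. Adamts14, its close relative, was at 6.16, 6.75 and 6.76 FPKM in NIH3T3, at 3.45, 1.59 and 1.03 FPKM in ES cells, and at 0.147, 0.0507, 0.188 and 0.0475 FPKM in NMuMG. Its level in ES cells lay between those of the other lines, higher than in NMuMG by a log2 change of 1.37 ± 0.232 (limma, adjusted p = 0.000435). Adamts3, the third enzyme of the group, stayed at or under 0.185 FPKM everywhere.

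The aggrecanases cut aggrecan and versican. Adamts5 was at 10.7, 9.34 and 49.4 FPKM in NIH3T3 and at no more than 0.0932 FPKM in any ES or NMuMG replicate. Adamts4 averaged 3.16 ± 1.19 FPKM in NIH3T3, 0.582 ± 0.152 FPKM in ES cells and 0.256 ± 0.0957 FPKM in NMuMG. Both were highest in NIH3T3, but Adamts15 and Adamts8 were not.

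Adamts15 averaged 2.81 ± 3.47 FPKM in NMuMG, where it ranged between 0.326 and 7.90 FPKM, and stayed at or under 0.0213 FPKM in NIH3T3. Adamts8 was listed at 0 in all NIH3T3 replicates and averaged 0.639 ± 0.400 FPKM in ES cells. Adamts15 and Adamts8 are neighbours on chromosome 9, as are Adamts1 and Adamts5 on chromosome 16, within 63.7 kb and 107 kb.

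Adamts1, an aggrecanase and versicanase, had the largest standard error of the tested members in all 3 comparisons. It was at 38.2, 10.6 and 116 FPKM in NIH3T3, at 0.695, 0.0885 and 0.131 FPKM in ES cells, and at 19.0, 5.29, 5.87 and 0.638 FPKM in NMuMG. The NIH3T3 and NMuMG ranges overlapped, and so did those of ES cells and NMuMG. Its log2 change was 4.88 ± 0.915 in NIH3T3 against ES cells (limma, adjusted p = 0.000954), 2.62 ± 0.856 in NIH3T3 against NMuMG (adjusted p = 0.0327) and -2.26 ± 0.856 in ES cells against NMuMG (adjusted p = 0.0370). The call against NMuMG was lost without NIH3T3 replicate 1 or 3 or NMuMG replicate 2 or 4 (adjusted p = 0.0626 to 0.127) and with library series as a term (3.25 ± 1.35, adjusted p = 0.134), and that of ES cells against NMuMG without any 1 replicate other than NMuMG replicate 4 (adjusted p = 0.0639 to 0.0997).

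Adamts10, which binds fibrillin, was at 6.90, 9.85 and 15.3 FPKM in NIH3T3, at 1.43, 1.38 and 0.646 FPKM in ES cells, and at 1.37, 0.469, 1.25 and 0.569 FPKM in NMuMG. Adamts7, which cuts cartilage oligomeric matrix protein, was at 4.92, 4.70 and 6.33 FPKM in NIH3T3, at 0.876, 0.374 and 0.307 FPKM in ES cells, and at 2.44, 1.46, 0.658 and 0.83 FPKM in NMuMG. Both were higher in every fibroblast replicate than in any other, by log2 changes of 2.58 ± 0.280 and 1.48 ± 0.256 against NMuMG (limma, adjusted p = 3.6e-05 and 0.000991). The test of Adamts7 has the limit of selection given above. Adamts12, a relative of Adamts7, averaged 3.95 ± 2.96 FPKM in NIH3T3 and stayed at or under 0.00673 FPKM elsewhere. Adamts6 averaged 1.75 ± 1.36 FPKM in NIH3T3, 0.0192 ± 0.0145 FPKM in ES cells and 0.514 ± 0.106 FPKM in NMuMG, and Adamts9 0.786 ± 0.780, 1.40 ± 0.395 and 0.915 ± 0.833 FPKM. Adamts9 thus had no called difference, and as a share of the ADAMTS FPKM it was 19.0 ± 1.5% in ES cells, against 0.509 ± 0.188% in NIH3T3. Adamts16 averaged 0.191 FPKM in NIH3T3 and Adamts17 and Adamts19 0.106 and 0.157 FPKM in ES cells, and Adamts13, Adamts18 and Adamts20 did not average 0.1 FPKM in any line.

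Many of the MMPs with little or no RNA are neighbours in the genome. A run of 10 MMP genes lies on chromosome 9 (mm10, chr9:7272514-7699416, 427 kb), in the order Mmp13, Mmp12, Mmp1b, Mmp3, Mmp1a, Mmp10, Mmp8, Mmp27, Mmp20 and Mmp7. They include the secreted collagenases, the stromelysins Mmp3 and Mmp10, the matrilysin Mmp7, macrophage elastase (Mmp12) and the enamel protease Mmp20. In this cluster 9 of the 10 members stayed under 1 FPKM in every replicate, against 3 of the 13 MMPs elsewhere (Mmp21, Mmp23 and Mmp24). Mmp1a, Mmp1b, Mmp8 and Mmp20 were listed at 0 in all 11 libraries. NMuMG had the highest cluster mean, that of Mmp13 (1.36 FPKM), which varied between replicates. In NMuMG Mmp13 was at 0.559, 0.0292, 3.56 and 1.31 FPKM, a range that overlapped the 0 to 0.149 FPKM of NIH3T3. Mmp10 was between 0.156 and 0.296 FPKM in NMuMG, and Mmp7 reached 0.242 FPKM. The highest cluster mean in NIH3T3 was 0.144 FPKM (Mmp3, at 0.432 FPKM in replicate 1 and 0 in replicates 2 and 3). That in ES cells was 0.00371 FPKM (Mmp12). The tables list Mmp1a and Mmp1b, near copies of one another, separately, and how reads common to both were counted is not given in the sources used here.

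The promoters of the cluster were then set beside those of the other members. Windows of 250 bases before to 50 bases after the start were available for 32 members (RefSeq, GRCm38.p6, the same assembly as mm10), and the 28 whose start lay within 50 bases of that in the expression tables were used, 9 in the cluster and 19 elsewhere. They were searched on both strands for the AP-1 element TGACTCA, which Fos and Jun dimers bind, the TATA element TATAAA and the GC box GGGCGG, of which different elements cannot share bases, while GC boxes may overlap each other. The AP-1 element was found in 7 of 9 cluster promoters, in none of the other 19 and in 5.20% of all 32851 promoters in the table. The TATA element was found in 9 of 9, 2 of 19 and 13.6%, and the GC box in 0 of 9, 15 of 19 and 35.7%. In Mmp8 and Mmp12 the TATA letters lay at or past the start and not upstream of it. Elsewhere in the cluster their distance varied. They began 7 bases before the start in Mmp3, 16 in Mmp13, 49 in Mmp1b and 58 in Mmp20. In Mmp1a and Mmp10 they began 28 and 29 bases before it, and in Mmp7 26 and 123 bases. Cluster promoters had 37.7 to 46.7% G + C, the other members 54.3 to 80.0%, and all promoters a median of 52.7%. Neighbours in a cluster that arose by duplication share ancestry, so these 9 promoters are not independent, and a match describes letters, not binding.

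The 120 bases before the start are shown for 4 cluster genes and for 4 members with high levels, to set the 2 kinds of promoter side by side. Capitals mark the AP-1 element (TGACTCA, or TGAGTCA where it lies on the other strand) and the TATA element in the first 4, and the GC box (GGGCGG, or CCGCCC on the other strand) in the last 4.
Mmp13 (chr9:7272394.0-7272513.0, plus strand): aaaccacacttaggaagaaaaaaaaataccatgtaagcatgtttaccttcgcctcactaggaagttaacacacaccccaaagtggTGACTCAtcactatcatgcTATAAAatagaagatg
Mmp3 (chr9:7445702.0-7445821.0, plus strand): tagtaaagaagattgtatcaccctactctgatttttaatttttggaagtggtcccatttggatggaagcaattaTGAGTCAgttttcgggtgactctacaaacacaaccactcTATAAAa
Mmp10 (chr9:7502222.0-7502341.0, plus strand): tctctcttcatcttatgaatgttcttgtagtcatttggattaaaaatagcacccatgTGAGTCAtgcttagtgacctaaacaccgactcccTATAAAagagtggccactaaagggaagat
Mmp1a (chr9:7464021.0-7464140.0, plus strand): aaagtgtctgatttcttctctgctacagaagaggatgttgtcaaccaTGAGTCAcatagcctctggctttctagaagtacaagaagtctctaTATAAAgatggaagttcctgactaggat
Mmp14 (chr14:54431478.0-54431597.0, plus strand): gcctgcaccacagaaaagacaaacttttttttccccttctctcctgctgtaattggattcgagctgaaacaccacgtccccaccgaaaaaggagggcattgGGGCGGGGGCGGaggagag
Mmp11 (chr10:75932503.0-75932622.0, minus strand): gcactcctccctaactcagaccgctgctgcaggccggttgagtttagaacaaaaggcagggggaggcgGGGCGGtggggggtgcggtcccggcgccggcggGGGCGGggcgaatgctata
Timp2 (chr11:118355412.0-118355531.0, minus strand): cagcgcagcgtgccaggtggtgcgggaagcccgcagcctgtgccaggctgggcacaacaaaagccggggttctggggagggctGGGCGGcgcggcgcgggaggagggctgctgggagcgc
Adamts2 (chr11:50601965.0-50602084.0, plus strand): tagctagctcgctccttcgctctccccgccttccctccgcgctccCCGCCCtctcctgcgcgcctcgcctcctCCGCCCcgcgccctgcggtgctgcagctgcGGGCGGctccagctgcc

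In Mmp13 the AP-1 element began 35 bases and the TATA element 16 bases before the start, and in Mmp10 63 and 29 bases before it. Mmp3 and Mmp1a had the same pair in the same order, with AP-1 elements 46 and 73 bases and TATA elements 7 and 28 bases before the start. Mmp14 and Mmp11, expressed in all 3 lines, had neither element and had GC boxes 19 bases before the start. Outside the cluster, Adamts1 was the only searched member averaging at least 1 FPKM in some line that had a TATA element. It lay 32 bases before the start of Adamts1, besides 3 GC boxes. In the cluster Mmp13, with both elements, averaged 1.36 FPKM in NMuMG. A high share of G + C did not by itself go with a high level: the promoters of Mmp24, Adamts3 and Adamts20 were among the richest, at 80.0, 77.3 and 77.3%, and their genes stayed under 0.5 FPKM.

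**Figure D4:**
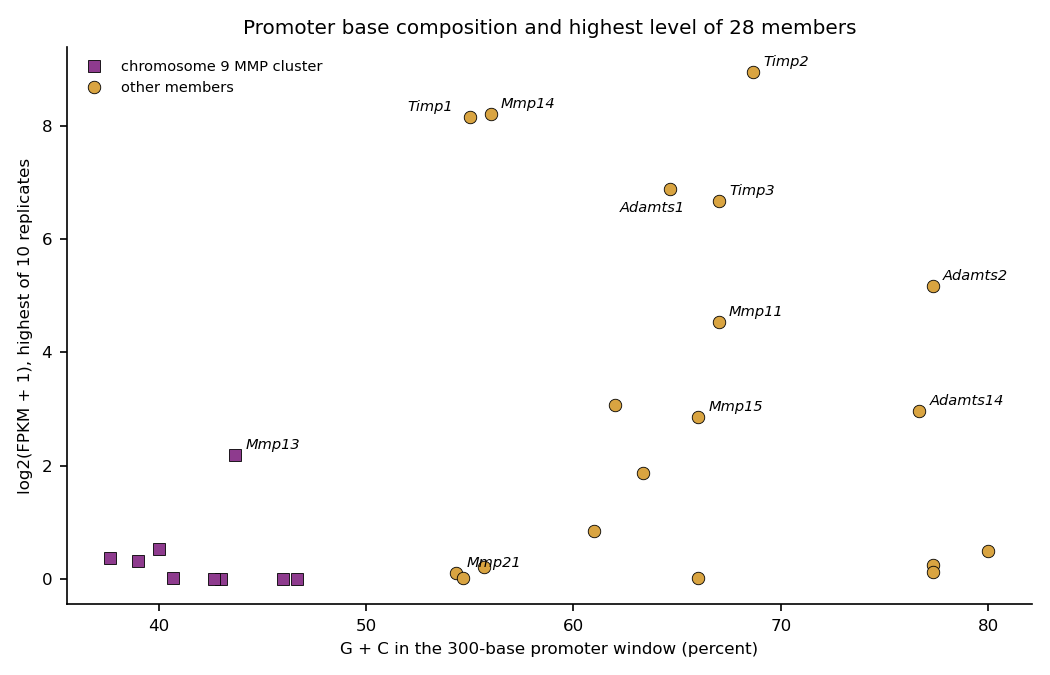
Share of G + C in the 300-base promoter window (horizontal axis, percent) against the highest of the 10 replicate levels (vertical axis, log2(FPKM + 1)) for 28 members. Squares are the 9 promoters of the chromosome 9 MMP cluster, all at or below 46.7%, and circles the other 19, all at or above 54.3%; the cluster reached at most 3.56 FPKM, in Mmp13.

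Levels of genes for AP-1 and ETS factors were listed for the 3 lines. Whether these levels bear on the cluster was not tested, and the promoters were not searched for an ETS element. Of 12 AP-1 and ETS factor genes 11 were tested, and 3 were higher and 4 lower in NIH3T3 against NMuMG. In NIH3T3 against ES cells 5 were higher and 2 lower, and in ES cells against NMuMG 2 were higher and 8 lower. Of all tested genes, 10.6% were higher and 14.4% lower, 23.0% and 20.1%, and 19.4% and 26.4% in these 3 comparisons. The counts of this list and of those below are to be read beside these shares, and no list was tested against them. Fosl1 was at 45.8 ± 31.0 FPKM in NIH3T3, listed at 0 in ES cells and at 17.0 ± 7.37 FPKM in NMuMG, and Fosl2 at 50.3 ± 28.6, 0.614 ± 0.219 and 15.2 ± 6.70 FPKM. In the same order Jun was at 57.4 ± 24.9, 3.17 ± 1.26 and 33.8 ± 15.0 FPKM and Fos at 3.63 ± 3.45, 0.988 ± 0.310 and 4.29 ± 0.895 FPKM. Junb was at 60.4 ± 52.3, 24.3 ± 10.0 and 159 ± 56.7 FPKM and Jund at 32.0 ± 15.7, 31.2 ± 3.14 and 120 ± 27.1 FPKM. Among ETS factors, Ets2 stood at 12.4 ± 8.88 FPKM in NIH3T3, 4.36 ± 0.804 FPKM in ES cells and 115 ± 16.3 FPKM in NMuMG, and Etv5 at 12.7 ± 3.96, 111 ± 5.13 and 4.28 ± 2.67 FPKM (SD, n = 3, 3 and 4). The epithelial factor Elf3 was listed at 0 in NIH3T3 and was at 9.23 ± 4.07 FPKM in ES cells and 16.7 ± 5.23 FPKM in NMuMG.

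Enzymes that activate MMP precursors differed between lines too. Furin, the convertase that activates Mmp11 and Mmp14 on the way to the surface, was at 35.5 ± 5.42 FPKM in NIH3T3, 4.60 ± 1.21 FPKM in ES cells and 69.0 ± 7.21 FPKM in NMuMG. In ES cells it was lower than in NMuMG by a log2 change of -3.66 ± 0.181 (limma, adjusted p = 6.94e-08). Of 7 convertases 4 were tested, with 0 higher and 2 lower in NIH3T3 against NMuMG, 1 in each direction against ES cells, and 0 higher and 1 lower in ES cells against NMuMG. Pcsk6 was near 0 in NIH3T3 (at most 0.00973 FPKM), at 7.16 ± 2.80 FPKM in ES cells and at 8.44 ± 5.06 FPKM in NMuMG. Pcsk7 was at 5.30 FPKM in NIH3T3 replicate 1 but listed at 0 in replicates 2 and 3, so its call against NMuMG (7.78 ± 0.804 FPKM) rests on zeros that are uncertain.

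In the plasminogen system, whose protease plasmin activates several MMPs, Plau was highest in NIH3T3, and Plat was high in NIH3T3 and higher still in NMuMG. Plau was at 23.9 ± 7.49 FPKM in NIH3T3, 0.121 ± 0.0530 FPKM in ES cells and 0.698 ± 0.749 FPKM in NMuMG, and Plat at 21.6 ± 9.55, 0.566 ± 0.378 and 54.8 ± 6.44 FPKM. Of 6 tested genes of this system 1 was higher and 3 lower in NIH3T3 against NMuMG, and 3 higher and 1 lower against ES cells. In ES cells against NMuMG 1 was higher and 3 lower. Plau, among the higher genes in both NIH3T3 comparisons, passed the filter only with its NIH3T3 replicates. Serpini1, the gene higher in ES cells than in NMuMG, passed it only with its ES replicates. The inhibitor Serpine2, called lower in NIH3T3 than in NMuMG, was at 28.6 FPKM in NIH3T3 replicate 1 and listed at 0 in replicates 2 and 3, against 23.3 ± 2.83 FPKM in NMuMG, and these zeros are uncertain too.

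A further list held 3 tested genes, Reck, Spock2 and Bsg, of which Reck alone is described here as an inhibitor. Of these 3 genes 1 was higher and 0 lower in NIH3T3 against NMuMG, and 1 in each direction against ES cells. In ES cells against NMuMG 2 were higher and 0 lower. Bsg was not called in any comparison. Spock2 entered the test through ES cells alone, so a difference was built into its selection. Reck, a membrane-anchored MMP inhibitor, was at 5.11 ± 3.31 FPKM in NIH3T3, 1.68 ± 0.329 FPKM in ES cells and 0.168 ± 0.111 FPKM in NMuMG, with a log2 change of 2.22 ± 0.337 in NIH3T3 against NMuMG (limma, adjusted p = 0.000408). By line means Reck had the same order as Mmp2, which it is known to inhibit. Unlike those of Mmp2, the NIH3T3 and ES ranges of Reck overlapped (1.74 to 8.37 and 1.33 to 1.98 FPKM). A link between the 2 genes was not tested. Spock2 was at 0.0387 ± 0.00511 FPKM in NIH3T3, 2.45 ± 0.425 FPKM in ES cells and 0.0250 ± 0.0107 FPKM in NMuMG.

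Of 12 matrix and proteoglycan genes that the proteases are known to cut or to meet in the matrix, 7 were tested, and Dcn, Lum and Fbn1 among these entered the test through NIH3T3 alone. Tnc too passed the filter only with its NIH3T3 replicates. All 7 were called higher in NIH3T3 in both comparisons, a count that Dcn, Lum, Fbn1 and Tnc fix in part. In ES cells against NMuMG 1 of 7 was higher. The other 5 did not pass the filter. Aggrecan (Acan) was listed at 0 in NIH3T3 and averaged 0.252 FPKM in ES cells and 0.0901 FPKM in NMuMG, and the proteoglycan Ncan averaged 0.00873 FPKM in NIH3T3, 1.10 FPKM in ES cells and 0.0215 FPKM in NMuMG. Comp and Bcan were likewise highest in ES cells, at 0.304 and 0.197 FPKM, and elastin (Eln) averaged 0.264, 0.251 and 0.00505 FPKM in NIH3T3, ES cells and NMuMG. Vcan, the versican core protein cut by Adamts1, Adamts4 and Adamts5, was at 86.8 ± 36.8 FPKM in NIH3T3, 1.86 ± 0.865 FPKM in ES cells and 0.103 ± 0.0733 FPKM in NMuMG. Decorin (Dcn) was at 66.9, 57.3 and 660.0 FPKM in NIH3T3 and at most at 0.0767 FPKM elsewhere, and tenascin C (Tnc) at 97.3, 49.1 and 18.9 FPKM in NIH3T3, against means of 0.00779 FPKM in ES cells and 1.22 FPKM in NMuMG.

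Of 4 tested tolloid and meprin genes, 1 was higher and 2 lower in NIH3T3 against NMuMG, and 2 higher and 1 lower in NIH3T3 against ES cells. In ES cells against NMuMG 1 was higher and 2 lower. Mep1a, among the lower genes in both comparisons with NMuMG, entered the test through NMuMG alone, so a difference was built into its selection. Pcolce, which helps the procollagen carboxy-terminal proteinase Bmp1, was at 461 ± 169 FPKM in NIH3T3, 31.5 ± 9.81 FPKM in ES cells and 26.8 ± 12.6 FPKM in NMuMG, and Bmp1 at 32.5 ± 13.2, 0.838 ± 0.408 and 21.4 ± 2.48 FPKM. Bmp1, like Mmp14, Timp2 and Furin, was called lower in ES cells than in both other lines. Pcolce2 was listed at 0 in NIH3T3 and was at 15.8 ± 4.47 FPKM in ES cells and 1.88 ± 0.933 FPKM in NMuMG, and the meprin Mep1a reached 2.98 ± 0.876 FPKM in NMuMG alone.

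Of 9 tested ADAM genes, which include the membrane sheddases, 3 were higher and 1 lower in NIH3T3 against NMuMG. In NIH3T3 against ES cells 4 were higher and 1 lower, and in ES cells against NMuMG 2 were higher and 4 lower. The gene lower in NIH3T3 than in ES cells was Adam22, which entered the test through ES cells alone, so a difference was built into its selection. Adam12, among the higher genes in both NIH3T3 comparisons, passed the filter only with its NIH3T3 replicates. Adam23 was at 58.1 ± 43.4 FPKM in NIH3T3, 35.5 ± 13.0 FPKM in ES cells and 0.369 ± 0.375 FPKM in NMuMG, and Adam19 at 13.3 ± 5.02, 12.9 ± 6.43 and 0.00703 ± 0.00564 FPKM. Adam9 and Adam15 had the opposite gap, with 52.2 ± 6.29 and 31.3 ± 7.71 FPKM in NIH3T3, 5.32 ± 1.18 and 4.30 ± 0.456 FPKM in ES cells, and 57.3 ± 8.42 and 32.7 ± 5.08 FPKM in NMuMG. The 2 tested ADAMTS-like genes, which encode proteins without a protease domain, were both lower in ES cells than in either other line: Adamtsl5 was at 0.876 ± 0.461 FPKM and Adamtsl4 at 0.504 ± 0.199 FPKM there. Neither was called in NIH3T3 against NMuMG.

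Of 10 tested genes for cathepsins and their inhibitor Cst3, 2 were higher and 4 lower in NIH3T3 against NMuMG, 6 higher and 3 lower in NIH3T3 against ES cells, and 0 higher and 8 lower in ES cells against NMuMG. Ctsh was listed at 0 in NIH3T3 and was at 3.76 ± 2.04 FPKM in ES cells and 49.0 ± 22.6 FPKM in NMuMG, and Ctsc was at most at 0.0135 FPKM in NIH3T3, at 2.67 ± 1.09 FPKM in ES cells and at 21.5 ± 10.1 FPKM in NMuMG. Ctsd was at 204 ± 36.4, 94.7 ± 7.32 and 724 ± 185 FPKM, Ctso at 7.08 ± 4.73, 0.0314 ± 0.0137 and 5.66 ± 0.934 FPKM, and Cst3 at 733 ± 303, 71.9 ± 21.3 and 285 ± 35.3 FPKM, each in the order NIH3T3, ES cells, NMuMG.

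Reporter and parental cultures were compared within NMuMG and within ES cells, to ask whether the transgenic lines kept the protease pattern of their parents. Of 12276 genes tested with limma, 0.212% were called in NMuMG and 0.0978% in ES cells. None of the 16 members tested was called in either line, while 4 in NMuMG and 2 in ES cells had an unadjusted p under 0.05. With 2 against 2 and 2 against 1 replicates these comparisons had little power, so the absence of a call does not show that levels were the same. No member was called in the test of whether the reporter difference itself differed between the 2 lines, and 2 had an unadjusted p under 0.05. The share of all tested genes with an unadjusted p under 0.05 is not given here, so these counts show no excess among the members.

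Timp3 gave the lowest p of the members in NMuMG. It was at 0.0484 and 0.0331 FPKM in the NMuMG reporter replicates, against 3.80 and 1.70 FPKM in the NMuMG parental replicates. The groups did not overlap, and the log2 change was -1.79 ± 0.327 (limma, unadjusted p = 0.00192, adjusted p = 0.229). Timp3 lies within Syn3, whose level was 0.701 to 1.67 FPKM in NMuMG.

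Timp1 was at 14.8 and 15.9 FPKM in NMuMG reporter replicates against 20.2 and 31.7 FPKM in NMuMG parental replicates, and at 24.4 and 23.0 FPKM in ES reporter replicates against 11.8 FPKM in the parental ES replicate. Its log2 change was -0.69 ± 0.240 in NMuMG (limma, adjusted p = 0.866) and 0.94 ± 0.293 in ES cells (adjusted p = 0.421), and the difference between these had an adjusted p of 0.316. Mmp28 was at 6.07 and 8.82 FPKM in NMuMG reporter replicates against 2.60 and 5.09 FPKM in NMuMG parental replicates, without overlap (log2 change 0.83 ± 0.328, adjusted p = 0.951). Adamts14 was at 1.59 and 1.03 FPKM in ES reporter replicates against 3.45 FPKM in the parental ES replicate (-0.96 ± 0.213, adjusted p = 0.248). Mmp14 and Timp2, which carry most of the family's RNA in NMuMG, had overlapping reporter and parental values there.

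**Figure D5:**
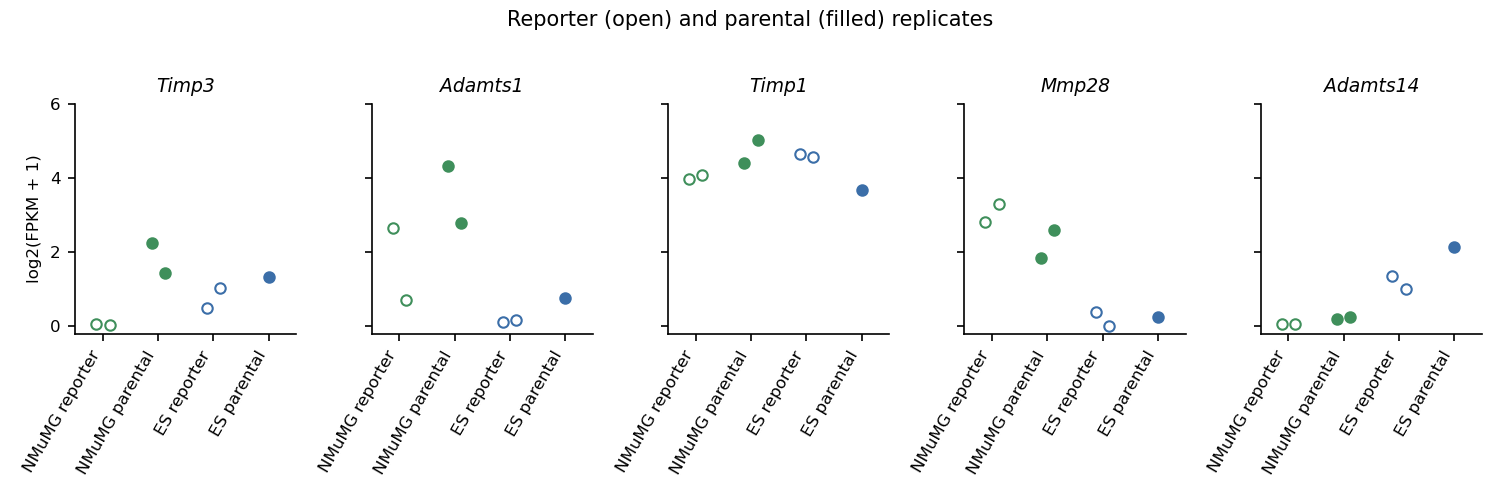
Levels of 5 members in reporter (open) and parental (filled) replicates of NMuMG and ES cells, on the log2(FPKM + 1) scale, each point 1 replicate. Timp3 lies near 0 in both NMuMG reporter replicates and above 1 in both parental ones; none of the differences was called.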

How the data were processed

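Total RNA of the 3 lines was sequenced in 11 libraries. Per the labels' protocols, RNA came from RNeasy columns and the NEBNext Ultra kit served for the libraries. Per the submitters' processing notes, bcl2fastq 1.8.4, TopHat and Cufflinks were used with the mm10 build, and other versions are not given in the sources used here. The deposited FPKM tables, 1 per library with 23849 entries, were used as deposited. Entries sharing a symbol were summed to 23355 symbols, and 3 symbols with a failed status were left out of the fits; every member had 1 entry and an OK status. Of the values above 5 FPKM, 25.7% to 54.8% per library fell outside the FPKM interval deposited with them, so these intervals served for no error. Read depth is known only relatively and precision is the spread between replicates.

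Changes were fitted across all genes on log2(FPKM + 1) by limma (version 3.58.1, R 4.3.3), two-sided, with a trend of the variance on intensity and Benjamini-Hochberg adjustment. Fold changes on this scale understate those of low genes. For the reporter fit, of 7 replicates, 2 had to reach 1 FPKM. The procedure was tested on simulated data. Sums, shares and ratios carry no test. Members averaging at least 5 FPKM in a line are given in every replicate; of each related list the counts called and the 2 called genes with the largest change per comparison are named, except a gene that is not reported here. The members and the lists were chosen with earlier results of these data known. Alternatives were other pseudocounts, no filter, quantile normalization, rescaling without short RNA genes, no trend, series as a block, single series, parental cultures, single technical runs and leaving out each replicate. NMuMG parental 1 and reporter 2 share a label number and their deviations from group means correlated at 0.274 over 12276 genes. Figures used Python 3.11.15 and matplotlib 3.10.9.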

Additional observations from a re-analysis of the deposited data

How the results depend on the processing

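Every called member kept its direction under every alternative. The counts of called members stayed within 1.5 times the reported ones except with few replicates or for a count of 0. Of 14 members called in NIH3T3 against NMuMG, 7 were called within library series 2 and 7 in parental cultures only. Of 17 in NIH3T3 against ES cells the counts were 10 and 9, and of 8 in ES cells against NMuMG 3 and 5; these settings leave 1 replicate in some lines, assumed to vary like the rest. With library series as a replicate block 12, 15 and 9 members were called; the calls lost were those of Adamts1 and Mmp28 in NIH3T3 against NMuMG and of Mmp15 and Mmp28 in NIH3T3 against ES cells. In the reporter comparisons the replicate block by label number left 0 members called in both lines. In ES reporter against parental the count was 1 without a filter on low values (Mmp25), and 0 to 1 on leaving out a replicate (Adamts14 without ES replicate 2). Leaving out each replicate in turn, the line counts were 12 to 14, 17 and 7 to 9.

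Changes that were not called turned sign as follows. Mmp11 in NIH3T3 against ES cells was 0.94 with the series block, 0.79 within series 2, 1.22 in parental cultures and -0.62 to 0.17 on leaving out a replicate. Mmp11 in NIH3T3 against NMuMG was 1.16 with the series block, 1.24 within series 2, 1.05 in parental cultures and -0.33 to 0.46 on leaving out a replicate. In ES cells against NMuMG it was -0.17 in parental cultures and -0.048 to 0.56 on leaving out a replicate. Timp1 in ES cells against NMuMG was 0.11 after quantile normalization, 0.0016 with the series block, 0.031 within series 2 and -0.24 to 0.25 on leaving out a replicate. Timp3 there was 0.68 and 0.13 with pseudocounts of 0.1 and 0.5, 0.15 after quantile normalization, 0.29 within series 2, 0.0086 with technical run 2 alone and -0.30 to 0.43 on leaving out a replicate. The cause was not tested. TIMP shares and the TIMP to MMP ratio moved by less than 1 SD in all 60 alternative values. NIH3T3 levels rest on 3 libraries, of which replicate 3 was the highest for many members.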
